A study of Homo sapiens with 2 samples.

Results

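HDAC9 and 9 other histone deacetylase genes were examined on 2 microarrays of PC3 cells, a human prostate cancer line first grown from a metastasis in bone that does not depend on androgen. The control cells received DMSO alone, and the treated cells received fluphenazine, a phenothiazine antipsychotic, at 10 µM, with 1 array for each. The sources used here do not say how long the cells were treated, and the labels name no other difference between the cultures. The 10 genes are HDAC1, HDAC2, HDAC3, HDAC8, HDAC4, HDAC5, HDAC7, HDAC9, HDAC6 and HDAC11, out of 18392 genes that the array's annotation names alone for at least 1 probe set. They were listed with the difference of HDAC9 between the 2 arrays already known, so the values of the members are a description. All 23 probe sets that the annotation assigns to these genes were taken, and none of them names a further gene.

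Histone deacetylases remove acetyl groups from lysines of histones and of many other proteins, and on chromatin this generally accompanies gene repression. Class I enzymes are mostly nuclear and work inside corepressor complexes. Class IIa enzymes have little deacetylase activity of their own, bind transcription factors of the MEF2 family, and shuttle between nucleus and cytoplasm under the control of kinases, many of them activated by calcium and calmodulin. Class IIb is mainly cytoplasmic, class IV holds HDAC11, and the sirtuins of class III use another chemistry and depend on NAD.

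Since each treatment has a single array, neither a test nor an error between cultures could be computed. In bulk RNA, a shift in every cell and a shift in some of the cells cannot be told apart. Each difference is a log2 signal with fluphenazine minus the same probe set's log2 signal with DMSO. A probe set counted as above the floor when its larger value was at least 6.19, which is the median of such larger values over the brightest probe sets of all genes. This floor is a rank and not a detection call, and it left 9196 genes and 14662 probe sets. As a yardstick within the arrays, the differences of probe sets of a same gene had a pooled SD of 0.13 over 3668 genes that had 2 or more of them above the floor. The epithelial markers KRT8, KRT18, EPCAM and CDH1 were all above the floor on these arrays. Of 11 measured markers of blood, endothelial, fibroblast and muscle cells, 9 were under it, the exceptions being PECAM1 and COL1A1. KLK3, an androgen-driven gene that PC3 cells are known to express little, was at 6.93 with DMSO and 6.90 with fluphenazine by the brightest of its 3 probe sets, the only one of them above the floor.

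HDAC9 was higher on the fluphenazine array, while 8 of the other 9 deacetylases were slightly lower. Its brightest probe set, 205659_at, had a log2 signal of 7.43 with DMSO and 8.26 with fluphenazine. The difference of 0.82 corresponds to 1.77-fold and placed HDAC9 at rank 11 from the top among the 9196 genes above the floor. The 8 lower members differed by -0.26 to -0.03 at their brightest probe sets, and HDAC5 was at 0.09. The median over these 9 was -0.12, against -0.01 over all genes above the floor, of which 51.8% were lower.

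**Figure D1:**
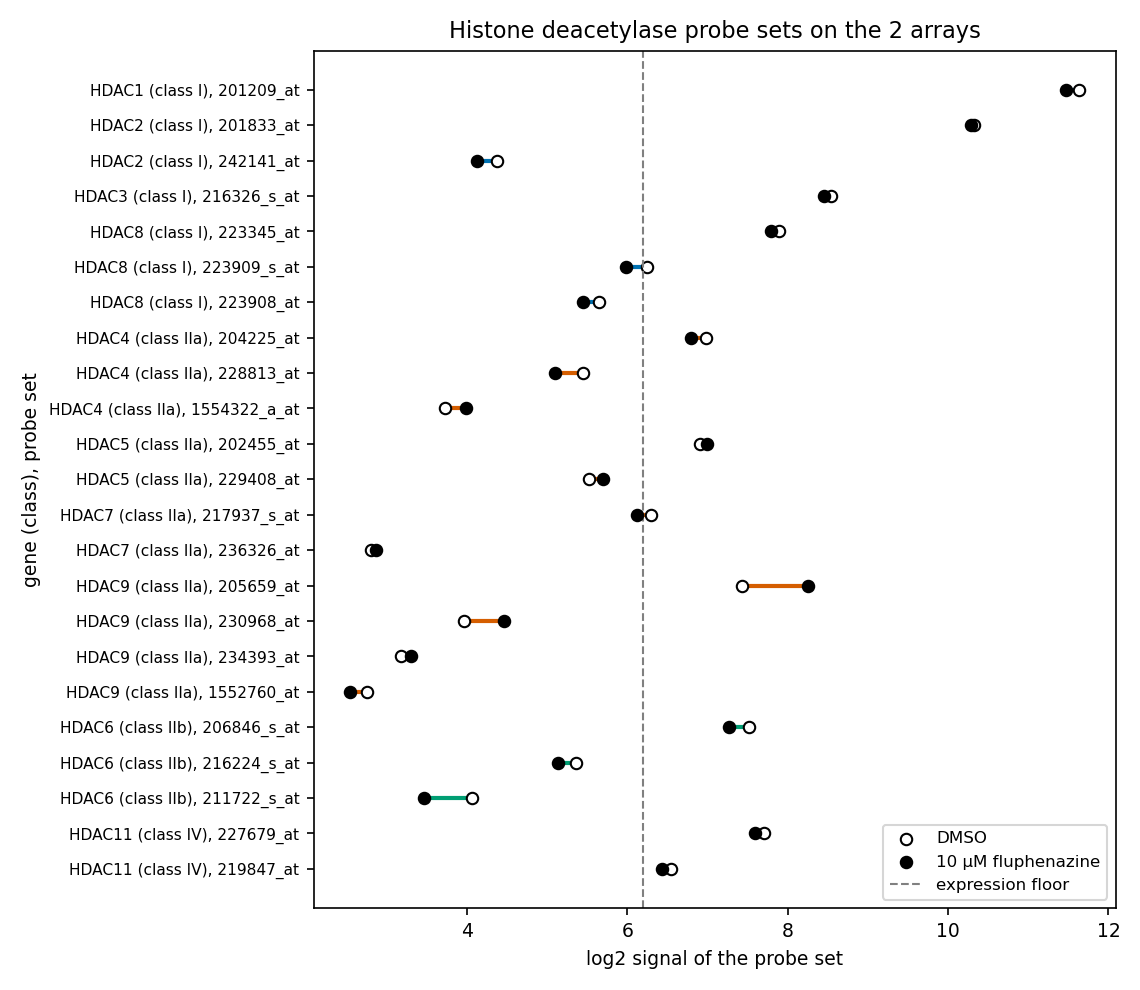
Log2 signal (horizontal axis) of each of the 23 probe sets (rows, grouped by gene and class) on the DMSO array (open circles) and the fluphenazine array (filled circles), with the expression floor of 6.19 as a dashed line. The bars joining the circles are longest for HDAC9 205659_at, from 7.43 to 8.26, and for the dim HDAC6 probe set 211722_s_at, from 4.06 to 3.46.

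At a threshold of 1.5-fold, 1 of the 12 member probe sets above the floor was past it, that of HDAC9, where 0.655% of all probe sets above the floor were. In the higher direction alone the share of all probe sets was 0.314%. Since this contrast was known when HDAC9 was listed, nothing is read from that count. Among the 11 member probe sets under the floor, 1 was past 1.5-fold, the HDAC6 probe set 211722_s_at, which was lower. Under the floor 2.42% of all probe sets were past 1.5-fold, and 1.35% were lower by that much. No member reached 2-fold.

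The 4 probe sets of HDAC9 did not read alike. The brightest was designed against a reference mRNA of the gene and was the only one above the floor. The next, 230968_at, had 3.96 with DMSO and 4.46 with fluphenazine, a difference of 0.50. The remaining pair, 234393_at (3.18 and 3.31) and 1552760_at (2.75 and 2.54), differed by 0.13 and -0.21. The 3 brighter probe sets were thus higher on the fluphenazine array and the dimmest was lower. The mean over all 4 probe sets was 0.31 and the SD between them 0.45, so the size of the HDAC9 difference rests on its brightest probe set.

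The spread of such differences depended on the signal. Among 5501 probe sets whose higher value lay between 8 and 10, where 205659_at falls, the central 95% of differences ran from -0.30 to 0.31, and 5 probe sets, HDAC9 included, were higher by at least as much as HDAC9. It falls there by its fluphenazine value, while its DMSO value of 7.43 lies between the floor and 8. In that range the central 95% of 6881 probe sets ran from -0.38 to 0.35, and 12 were higher by at least as much. Between 4 and the floor, where 230968_at falls, the central 95% of 10661 probe sets ran from -0.53 to 0.50. The difference of 230968_at lay at the upper edge of that range, in which it was placed by its fluphenazine value, as its DMSO value was 3.96. The difference being judged thus helps to set the range for both probe sets. Under 4, the range was -0.47 to 0.47, and both dimmest HDAC9 probe sets lay inside it.

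HDAC9 has long forms that carry the catalytic domain and a short form, known as MITR or HDRP, that lacks it and still binds MEF2. Which of these forms each probe set reads was not tested. RefSeq lists several start sites for the gene, and the sequences around 2 of them, each with a match to a motif named below, are shown. HDAC9 is itself known to be switched on by MEF2, and whether MEF2 acts on it in these cells was not tested. RefSeq (GRCh38.p14) gave 19 windows, from 250 bases before to 50 after a start, for 9 of the 10 members, 5 of them for HDAC9. HDAC5 had no window. The 2 windows printed here lie at the outermost start of HDAC9, at chr7:18086575-18086874 on the plus strand, and at a start inside the gene, at chr7:18495460-18495759 on the plus strand. Both are written 5′ to 3′, and capitals mark a match to the MEF2 consensus in the outer window and to the AP-1 site TGANTCA in the inner window.
HDAC9 outer start: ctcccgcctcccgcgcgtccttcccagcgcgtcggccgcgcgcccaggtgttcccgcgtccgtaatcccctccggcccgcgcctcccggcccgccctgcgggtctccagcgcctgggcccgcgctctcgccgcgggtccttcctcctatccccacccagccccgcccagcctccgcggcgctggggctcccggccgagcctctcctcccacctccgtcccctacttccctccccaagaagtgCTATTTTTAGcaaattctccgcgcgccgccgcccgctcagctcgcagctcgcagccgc
HDAC9 inner start: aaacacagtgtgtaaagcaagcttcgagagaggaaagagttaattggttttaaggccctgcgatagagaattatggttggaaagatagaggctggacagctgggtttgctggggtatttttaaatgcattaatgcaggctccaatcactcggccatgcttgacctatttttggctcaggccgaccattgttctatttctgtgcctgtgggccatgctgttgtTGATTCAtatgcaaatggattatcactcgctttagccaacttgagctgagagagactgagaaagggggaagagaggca

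The MEF2 consensus was matched on both strands in 1 of the 19 member windows, by CTATTTTTAG in the outer window of HDAC9, beginning 8 bases before the start site. Over 35116 promoter windows of the same length in the RefSeq table, 2.99% held a match. The AP-1 site TGANTCA, bound by FOS and JUN proteins and searched on both strands, was matched in 2 member windows, by the same TGATTCA in overlapping windows of HDAC9, against 7.71% of all windows. The element TGATGNAA, bound by C/EBP and ATF proteins and searched on both strands, was matched in 0 of the 19, against 3.62% of all windows. These matches describe letters in the windows. They do not show that a factor binds there, and which start PC3 cells use was not tested.

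Class I was uniformly a little lower. HDAC1, a catalytic subunit of the NuRD, SIN3 and CoREST complexes, had 11.63 with DMSO and 11.47 with fluphenazine, a difference of -0.17. HDAC2, its close relative in the same complexes, was at 10.33 and 10.29 by its brightest probe set (-0.03), and at 4.37 and 4.12 by a dim one (-0.25). HDAC3, the enzyme of the NCOR and SMRT complexes, was at 8.54 and 8.45, or -0.09. HDAC8, which deacetylates the cohesin subunit SMC3, was at 7.89 and 7.79, or -0.09. Its other 2 probe sets gave -0.27 and -0.19. All 7 class I probe sets were lower with fluphenazine, from -0.27 to -0.03, and the largest ratio was 1.20-fold. Of all probe sets with 1 gene, 51.2% were lower.

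Class IIa was mixed. HDAC4, best known for restraining chondrocyte hypertrophy, was at 6.98 with DMSO and 6.79 with fluphenazine by its brightest probe set (-0.19). Its 2 probe sets under the floor disagreed, at -0.35 and 0.26. HDAC5, known as a brake on cardiac stress genes, was at 6.91 and 7.00, or 0.09, and its dim probe set gave 0.16. HDAC7, known for its part in blood vessel integrity and thymocyte selection, was at 6.29 and 6.12, or -0.17, whereas its dim probe set was at 0.06. HDAC5 was the only member whose probe sets were all higher with fluphenazine, and both of its values lay inside the spread of probe sets of similar signal.

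**Figure D2:**
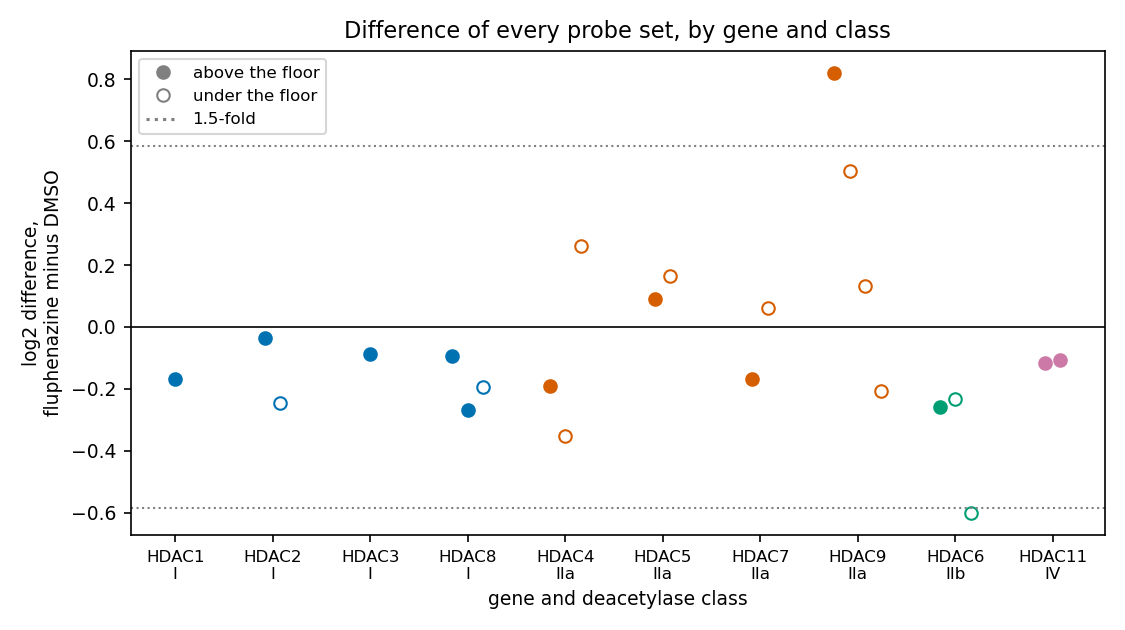
Log2 difference, fluphenazine minus DMSO (vertical axis), of each member probe set by gene and class (horizontal axis), filled above and open under the floor; dotted lines mark 1.5-fold. All 7 class I, all 3 HDAC6 and both HDAC11 points lie below 0, while class IIa spans -0.35 to 0.82.

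HDAC6, the cytoplasmic class IIb enzyme that deacetylates alpha-tubulin and carries a ubiquitin-binding domain, had the most negative difference of the members at the brightest probe set. That probe set was at 7.52 with DMSO and 7.26 with fluphenazine, a difference of -0.26 or 1.20-fold. The dimmer ones were at 5.36 and 5.13 (-0.23) and at 4.06 and 3.46 (-0.60, or 1.52-fold). All 3 were lower, and HDAC6 stood at rank 455 from the bottom of the 9196 genes. HDAC11, the class IV enzyme, which removes long fatty acyl groups, was at 7.71 and 7.59 (-0.12) and at 6.54 and 6.43 (-0.11). Its 2 probe sets, both above the floor, differed from each other by less than 0.01. HDAC10, the other class IIb enzyme and not a member, was under the floor, at 4.73 and 4.81.

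Between the classes, the median difference of the class I genes was -0.09 and that of the class IIa genes -0.04, a gap of -0.05. The gap turned to 0.08 without HDAC9 and was -0.23 with class means in place of medians. The 3 class IIa genes other than HDAC9 had a median of -0.17, next to -0.26 for HDAC6 and -0.12 for HDAC11. That median is the value of HDAC7, whose probe set was above the floor with DMSO (6.29) and under it with fluphenazine (6.12). Over all 7 probe sets of these 3 genes the median was 0.06, against -0.17 over the 7 of class I. The sign of the gap without HDAC9 thus rests on 1 probe set near the floor. Classes IIb and IV hold 1 member each here.

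**Figure D3:**
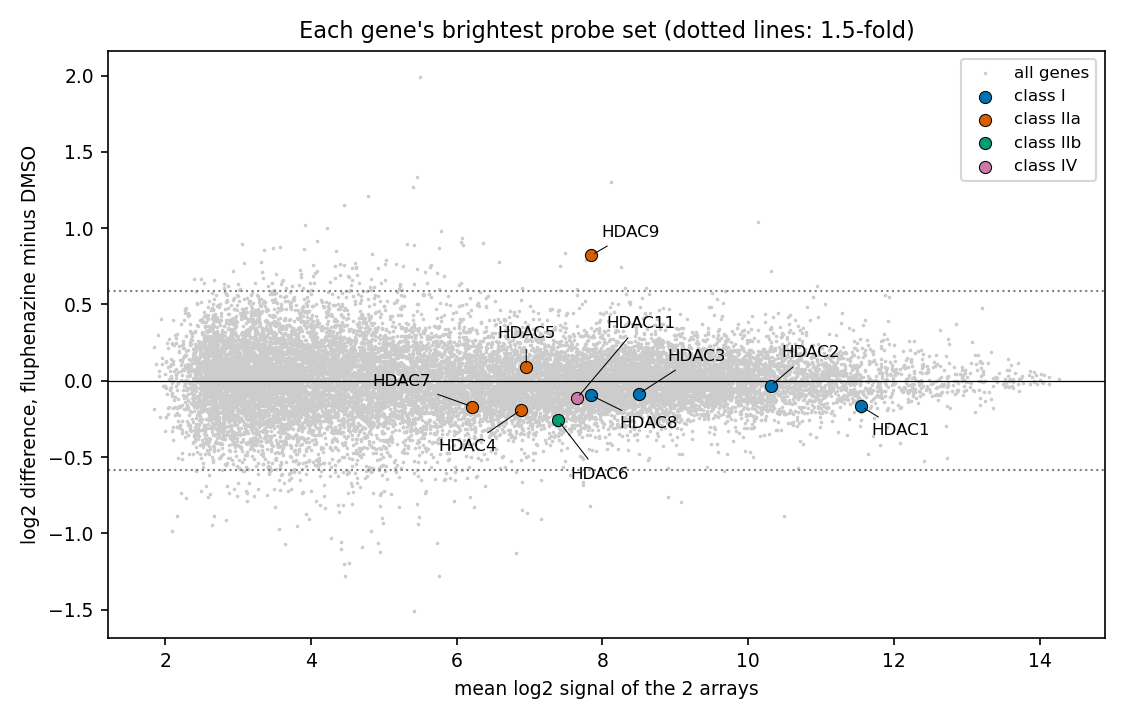
Log2 difference (vertical axis) against the mean log2 signal of both arrays (horizontal axis) for the brightest probe set of all 18392 genes (grey), with the 10 deacetylases coloured by class and dotted lines at 1.5-fold. HDAC9, at 0.82, lies above the upper line, and the other 9 lie between -0.26 and 0.09.

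In the ranking of differences the genes next to HDAC9 were SNRNP200 (0.90), MILR1 (0.89) and ICOSLG (0.84) above it, and ATF3 (0.79), HPGD (0.78) and MMP1 (0.75) below it. With DMSO, SNRNP200 (5.91) and MILR1 (5.65) were under the floor and HPGD just under it. These genes entered the ranking only through their higher fluphenazine values. Likeness here means a similar difference between 2 arrays and nothing more. SNRNP200 encodes a spliceosomal helicase, MILR1 a mast cell receptor, ICOSLG a co-stimulatory ligand, ATF3 a stress-induced transcription factor, HPGD a prostaglandin-degrading enzyme and MMP1 a collagenase. As with HDAC9, the dimmer probe sets gave smaller values for ATF3 (0.14 and 0.33) and HPGD (0.23 to 0.34), and for ICOSLG they ranged from -0.36 to 0.17. Unlike those of HDAC9, some of these were above the floor. They were the ICOSLG probe set at -0.36 (7.05 with DMSO and 6.69 with fluphenazine) and the HPGD ones at 0.29 and 0.34.

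The genes that flank HDAC9 on its chromosome did not share its difference. PRPS1L1 is the nearest coding gene on one side, followed by SNX13, and TWIST1 and FERD3L are the nearest on the other. TWIST1, a transcription factor of mesenchymal development that is known to be controlled by enhancers inside HDAC9, had 7.27 with DMSO and 7.33 with fluphenazine, a difference of 0.06. SNX13, a sorting nexin, was at 8.25 and 8.20, or -0.04, and at 0.14 by its other probe set above the floor. FERD3L and PRPS1L1 were under the floor, at 0.08 and -0.29.

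Partners, regulators and targets of the deacetylases were read from 14 lists with 147 genes, of which 135 were measured and 109 were above the floor. None of the 109 was past 1.5-fold in either direction, where 0.576% of all genes above the floor were. Of these genes 56 were higher and 53 lower, with a median of 0.00, and the gene farthest from 0 was at 0.41. The lists are described by their counts and medians at the brightest probe set of each gene.

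**Figure D4:**
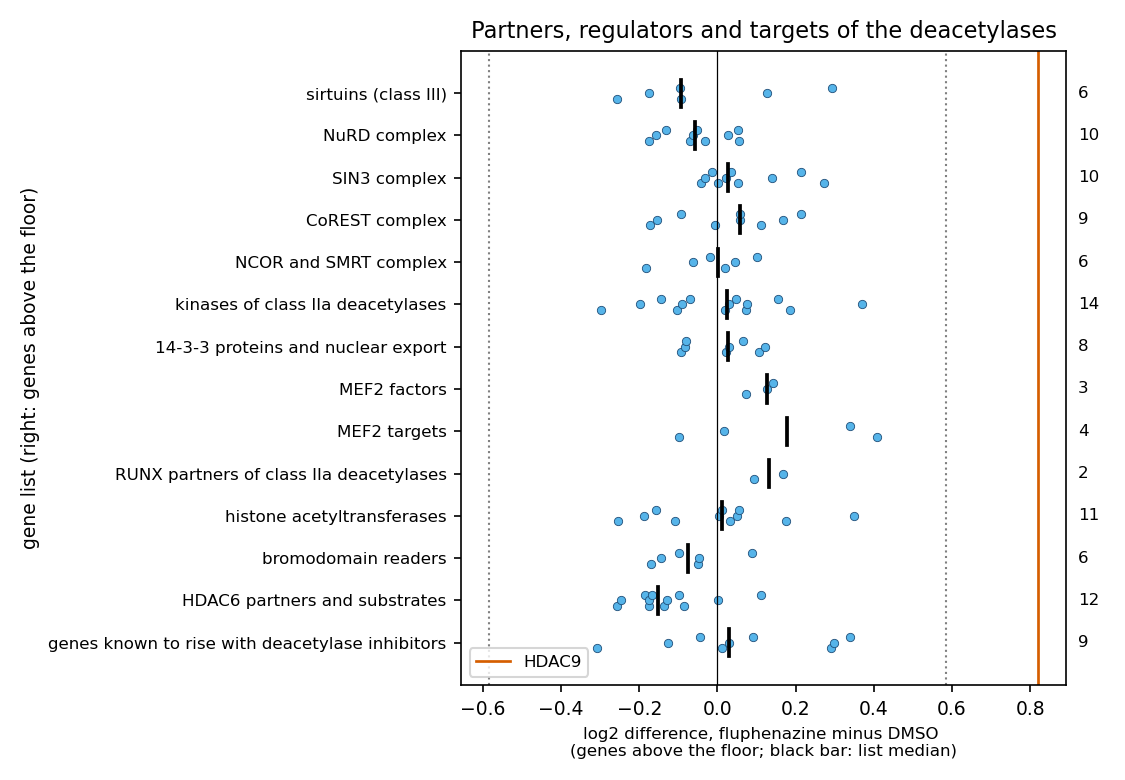
Log2 difference, fluphenazine minus DMSO (horizontal axis), of the genes above the floor in each of 14 lists (rows, with the number of genes at the right); black bars are list medians, dotted lines 1.5-fold and the orange line HDAC9. Every point lies between the dotted lines, the farthest at 0.41, and HDAC9 lies beyond them at 0.82.

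The medians of the corepressor complexes, over genes above the floor, stayed close to 0. Under the floor were MTA2 of NuRD (5.44 with DMSO and 4.87 with fluphenazine, or -0.57) and RCOR2 of CoREST (-0.30). In NuRD, a chromatin-remodelling complex built around HDAC1 and HDAC2, 7 of 10 genes lay below 0, with a median of -0.06 and a range from -0.17 (GATAD2B) to 0.05 (GATAD2A, whose 3 probe sets above the floor ran from -0.09 to 0.14). In the SIN3 complex 7 of 10 were higher, with a median of 0.03 and SAP30 at 0.27, although the 2 probe sets of SAP30 above the floor ran from -0.12 to 0.27. In the CoREST complex 5 of 9 were higher, with a median of 0.06. The corepressor CTBP2 was at 0.21, with 5 probe sets above the floor from 0.02 to 0.21, and the histone demethylase KDM1A was at -0.17. In the NCOR and SMRT group 3 of 6 were higher, with a median of 0.00. TBL1XR1 was at 0.10, with probe sets above the floor from -0.29 to 0.10, and CORO2A was at -0.18.

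Among 14 kinases that phosphorylate class IIa deacetylases or activate those kinases, 8 were higher and 6 lower, with a median of 0.02. PRKAA1, a catalytic subunit of the AMP-activated kinase, was at 8.62 with DMSO and 8.99 with fluphenazine, or 0.37, though its 3 probe sets above the floor ran from -0.02 to 0.37. CAMKK1, which activates calmodulin-dependent kinases, was at 6.80 and 6.50, or -0.30. The calmodulin-dependent kinases CAMK2D (0.08), CAMK2G (-0.14) and CAMK1D (-0.10) went both ways, as did the protein kinases D, PRKD2 (-0.20) and PRKD3 (0.07). For CAMK2D and PRKD3 the other probe sets above the floor were lower. The phosphorylated enzymes are held in the cytoplasm by a family of scaffold proteins, encoded by the YWHA genes and SFN, after export by XPO1. Of these 8 genes 5 were higher, with a median of 0.03 and a range from -0.09 (SFN) to 0.12 (YWHAE), although the probe sets of SFN and of YWHAE above the floor lay on both sides of 0.

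The MEF2 factors, which class IIa enzymes repress, were slightly higher at their brightest probe sets. MEF2A was at 0.13, MEF2C at 0.14 and MEF2D at 0.07, with a median of 0.13 over the 3. The 3 probe sets of MEF2A above the floor ran from -0.03 to 0.37. For MEF2C the mean over its 3 probe sets was -0.09. Of 15 measured genes known as MEF2 targets, 11 were under the floor. The other 4 had a median of 0.18, which was 0.34 with a stricter floor and 0.08 with none. They were the transcription factors KLF4 at 0.41 (8.36 with DMSO and 8.77 with fluphenazine) and KLF6 at 0.34 (9.43 and 9.76), the synaptic scaffold HOMER1 at 0.02 and JUN at -0.10. The other probe set of KLF4, under the floor, was at 0.03. The 4 probe sets of KLF6 above the floor ran from 0.09 to 0.34, and the 4 of JUN from -0.30 to -0.10. The median of 0.34 with the stricter floor is the value of the brightest KLF6 probe set. RUNX2, a bone transcription factor bound by HDAC4, was at 0.17 by the probe set above the floor and at -0.04 as the mean of 5 probe sets. Its partner CBFB was at 0.09, and at -0.03 by its other probe set above the floor.

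Of 12 HDAC6 partners and substrates above the floor, 10 were lower with fluphenazine, with a median of -0.15 and a range from -0.26 to 0.11. The alpha-tubulin genes TUBA1A (-0.26), TUBA4A (-0.25), TUBA1B (-0.18) and TUBA1C (-0.13) were all lower. These genes resemble each other so closely that a probe set may read more than 1 of them. The segregase VCP was at -0.18, the chaperone HSP90AB1 at -0.17, the peroxiredoxin PRDX1 at -0.17 and the actin regulator CTTN at -0.14, while HSP90AA1 was at 0.00 and the dynein heavy chain DYNC1H1 at 0.11. Both exceptions rest on the brightest probe set. The other probe sets above the floor were at -0.24 to -0.09 for HSP90AA1 and at -0.21 for DYNC1H1. VCP and CTTN each also had a probe set above the floor that was higher, at 0.03 and 0.11. Over all genes above the floor 51.8% were lower.

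Enzymes with the opposite or a parallel role showed no common direction. Of 11 acetyltransferases 7 were higher, with a median of 0.01, CREBBP at 0.35 and KAT8 at -0.25. The 4 probe sets of CREBBP averaged 0.04. Among the sirtuins SIRT1 was at 7.31 with DMSO and 7.61 with fluphenazine, or 0.29, and SIRT3, of mitochondria, was at 0.13. The other 4 sirtuins above the floor were lower, down to -0.26 for SIRT6, and the list median was -0.09. Among 9 genes known to rise when deacetylases are inhibited, 6 were higher, with a median of 0.03. KLF6, the same gene as among the MEF2 targets, was at 0.34, and its probe sets above the floor ran from 0.09 to 0.34. The cell cycle inhibitor CDKN1A was at 0.30 (8.86 and 9.15), the dehydrogenase DHRS2 at 0.29 and the beta-tubulin TUBB3 at -0.31 (10.22 and 9.92). GSN (-0.13) and TXNIP (-0.04) were also lower, and CDKN1C (0.01), MT1X (0.03) and GADD45B (0.09) were slightly higher.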

How the data were processed

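Total RNA of PC3 cells was measured on 2 Affymetrix arrays, 1 with DMSO and 1 with 10 µM fluphenazine. The submitters' processing notes name RMA, Transcriptome Analysis Console 3.1 and Affymetrix Expression Console 1.4 without saying what each did. The authors deposited 1 log2 signal per probe set and array, a scale judged from the values (1.60 to 14.28). RMA equalises distributions, so a difference is relative to the other genes and not to total RNA. No genome build is named in the sources used here.

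The table held 47693 probe sets. The platform annotation of 2016 named 1 gene for 37145 of them, apart from controls, and symbols were updated through gene identifiers. Every member probe set was used. Elsewhere a gene was read by its probe set with the highest mean. Named genes were the members, the largest positive and negative difference of each list (with further members of a list for context, chosen after their values were seen), the 3 genes on either side of HDAC9 in rank, and its flanking genes. Members and lists were chosen with earlier results of these data known. The number of arrays limits the precision. Alternatives were 3 scalings, 2 floors, 2-fold, averaged probe sets and class summaries. Python 3.11.15, numpy 2.4.6, pandas 2.3.3, statsmodels 0.14.6 and limma 3.58.1 in R 4.3.3 were used, and counts and medians were tested on simulated data. Some rows are not analysed here.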

Additional observations from a re-analysis of the deposited data

How the results depend on the processing

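The HDAC9 difference stayed between 0.82 and 0.84 under 3 other scalings of the arrays. It was 0.31 as the mean of its 4 probe sets and 0.32 as their median. No probe set names HDAC9 beside another gene, so allowing such probe sets left that mean at 0.31. The count of member probe sets past 1.5-fold was 1 under all 3 scalings, 2 with no floor, and 0 with the stricter floor of 8.43, which HDAC9 does not reach, and at 2-fold. The gap between the class I and class IIa medians was -0.23 with class means and turned to 0.08 without HDAC9, where the class IIa median is the HDAC7 value. It had no value with the stricter floor, where no class IIa gene was left. The number of pathway lists with a median above 0 was 10 and stayed within 8 to 10. With averaged probe sets 4 list medians changed sign, those of the bromodomain readers (0.03), the RUNX group (-0.00), the class IIa kinases (-0.02) and the NCOR and SMRT group (-0.06). No member changed sign under the scalings or as the mean of its probe sets, alternatives added after the data were seen. No paired analysis was possible because each treatment has 1 array.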

Other observations

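Readers of acetylated lysines, the bromodomain proteins, were not described above. Of 6 genes above the floor 5 were lower, with a median of -0.08, BRD9 of a chromatin-remodelling complex at -0.17, BRD3 at -0.15 (0.09 by its other probe set above the floor) and BRPF1, a scaffold of acetyltransferases, at 0.09. The antisense RNA of HDAC2, HDAC2-AS2, had a dim probe set at 3.79 with DMSO and 4.19 with fluphenazine, a difference of 0.40. That of HDAC4, HDAC4-AS1, was at 4.28 and 4.19. The strand that the array reads was not tested.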
